A study of Homo sapiens with 18 samples.

Results

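The genes described here are 42 genes of ribosome biogenesis and RNA polymerase I, taken by name from a table of 27166 genes: nucleolar processing factors, the proteins of box C/D and box H/ACA snoRNPs, and polymerase I with its factors. They were measured by RNA sequencing in 18 libraries of 3 human cancer cell lines, with 3 libraries in each of 6 groups: NCIH838 (lung) labelled KDSR KO and CTRL, DLD1 (colon) KDSR KO and CTRL, and HUH7 (liver) KDSR KO and CTRL. Cells labelled KDSR KO had received a lentiviral CRISPR vector with 1 guide against KDSR, an enzyme of sphingolipid synthesis, and CTRL cells the same vector with a non-targeting guide. Puromycin selection lasted 5 days in all 6 groups, and RNA was taken at day 10 after infection in NCIH838 and at day 8 in DLD1 and HUH7. No step of cloning is described for the selected cells, 1 KDSR guide stands for the knockout in each line, and NCIH838 and its later day of collection cannot be told apart.

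Ribosomes are assembled in the nucleolus, where RNA polymerase I, with UBTF on the ribosomal DNA and RRN3 as its initiation factor, makes a long precursor of ribosomal RNA. Box C/D snoRNPs (FBL, NOP56, NOP58) methylate the ribose of chosen bases in that precursor, and box H/ACA snoRNPs (DKC1, NHP2, NOP10, GAR1) convert chosen uridines to pseudouridine. Processing factors then cut, fold and release the precursors of the small and the large subunit. In cultured cells this programme accompanies growth, and many of its genes are known targets of MYC, which binds the sequence CACGTG.

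The promoters of 6 members are printed because the mRNAs of FBL, UBTF and NHP2 were lower in DLD1 KDSR KO and in NCIH838 libraries labelled KDSR KO, and those of BYSL, PES1 and NOP56 were higher in NCIH838 libraries labelled KDSR KO. The KDSR mRNA of these NCIH838 libraries did not differ from CTRL beyond the spread between libraries. Each is RefSeq's window of 250 bases before to 50 bases after an annotated start (GRCh38.p14, the window farthest upstream where a gene has several), 5′ to 3′ on the gene's strand, with CACGTG in capitals. The windows lie at chr19:39846330-39846629 (minus strand) for FBL, chr17:44220833-44221132 (minus) for UBTF, chr5:178153836-178154135 (minus) for NHP2, chr6:41921249-41921548 (plus) for BYSL, chr22:30591861-30592160 (minus) for PES1 and chr20:2652382-2652681 (plus) for NOP56.
FBL: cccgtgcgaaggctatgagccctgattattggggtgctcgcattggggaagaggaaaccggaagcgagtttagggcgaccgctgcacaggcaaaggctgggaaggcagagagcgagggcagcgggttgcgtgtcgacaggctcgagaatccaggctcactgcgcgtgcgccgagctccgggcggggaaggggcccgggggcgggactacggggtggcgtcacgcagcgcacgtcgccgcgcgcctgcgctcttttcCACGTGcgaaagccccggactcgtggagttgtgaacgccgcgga
UBTF: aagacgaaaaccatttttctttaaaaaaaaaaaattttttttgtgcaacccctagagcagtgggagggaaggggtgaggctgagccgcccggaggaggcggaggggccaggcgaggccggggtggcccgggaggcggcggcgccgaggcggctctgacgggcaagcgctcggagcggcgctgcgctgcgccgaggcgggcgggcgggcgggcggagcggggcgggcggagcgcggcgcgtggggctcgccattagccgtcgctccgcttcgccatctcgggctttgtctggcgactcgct
NHP2: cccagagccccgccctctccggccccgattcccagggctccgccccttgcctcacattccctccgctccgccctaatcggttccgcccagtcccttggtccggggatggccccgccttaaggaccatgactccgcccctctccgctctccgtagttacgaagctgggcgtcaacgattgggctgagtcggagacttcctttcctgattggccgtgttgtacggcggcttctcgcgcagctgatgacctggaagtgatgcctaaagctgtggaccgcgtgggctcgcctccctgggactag
BYSL: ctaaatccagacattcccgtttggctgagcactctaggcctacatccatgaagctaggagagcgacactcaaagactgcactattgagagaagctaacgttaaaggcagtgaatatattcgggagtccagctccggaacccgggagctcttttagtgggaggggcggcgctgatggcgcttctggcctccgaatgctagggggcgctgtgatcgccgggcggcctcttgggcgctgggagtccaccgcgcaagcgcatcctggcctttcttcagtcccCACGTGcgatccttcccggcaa
PES1: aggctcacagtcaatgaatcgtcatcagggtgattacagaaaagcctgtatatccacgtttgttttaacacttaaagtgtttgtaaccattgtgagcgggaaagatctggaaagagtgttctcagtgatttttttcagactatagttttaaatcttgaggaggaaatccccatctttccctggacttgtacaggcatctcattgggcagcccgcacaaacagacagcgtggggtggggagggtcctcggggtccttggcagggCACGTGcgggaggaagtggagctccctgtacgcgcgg
NOP56: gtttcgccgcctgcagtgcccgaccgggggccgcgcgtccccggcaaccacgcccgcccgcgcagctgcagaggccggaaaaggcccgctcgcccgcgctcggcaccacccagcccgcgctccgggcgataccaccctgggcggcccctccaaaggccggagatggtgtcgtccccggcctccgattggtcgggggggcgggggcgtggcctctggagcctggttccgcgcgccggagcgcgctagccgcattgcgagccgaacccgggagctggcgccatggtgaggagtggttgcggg

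CACGTG, which reads the same on both strands, stood in the windows of FBL, BYSL and PES1, beginning at base 7, 29 and 14 counted from the start site as base 1. It was not in the printed windows of UBTF, NHP2 and NOP56. Of the 47 windows of members 38.3% held it, against 7.26% of all 35116. Of the 36 members matched in the promoter table, 17 had it in at least 1 window (47.2%), against 8.78% of all 27305 genes there. CCGGAAGT, the core bound by ETS factors, searched on both strands, stood in a window of 9 of the 36 members (25.0%) and of 4.95% of all genes. Members with and without CACGTG are found among the genes that were lower and among those that were higher, and a match only describes the letters of the window.

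Levels are given in TPM, a share of the sequenced transcripts after correction for gene length. Depth was 17039634 to 20385767 reads per library, and apart from NOP2 the members had 54 to 38418 reads per library. KDSR itself averaged 12.9 ± 0.821 TPM in NCIH838 libraries labelled KDSR KO against 13.4 ± 1.39 TPM in CTRL, 19.2 ± 0.413 TPM in DLD1 KDSR KO against 29.7 ± 2.50 TPM in CTRL, and 3.63 ± 0.401 TPM in HUH7 KDSR KO against 5.79 ± 0.730 TPM in CTRL (SD, n = 3 each). The exact permutation test gave p = 0.7, 0.1 and 0.1 in the same order of lines, with 0.1 the smallest value 3 against 3 can give. In the limma fit over all genes the adjusted p of KDSR was 0.681 in NCIH838, 0.000775 in DLD1 and 0.114 in HUH7. The changes were -0.05, -0.60 and -0.55 in log2(TPM + 1) in the same order, each with an SE of 0.09. The lower KDSR level passed that test in DLD1 and did not in HUH7, where 0 of 16104 genes passed. In both of these lines every KDSR KO library lay under every CTRL library. The adjusted p does not show that KDSR fell less in HUH7. In NCIH838 the KDSR mRNA did not differ beyond the spread between libraries, so its level does not show the knockout there. Each NCIH838 direction below is that of the libraries labelled KDSR KO. An mRNA level does not show whether the gene was cut. By the mean over all libraries of a line, of 8 liver markers 8 reached 1 TPM in HUH7, 2 in DLD1 and 0 in NCIH838. The first CTRL library of NCIH838 had 3.10 TPM of ALB, 3.16 TPM of AFP and 1.33 TPM of SERPINA1. The other NCIH838 CTRL libraries had at most 0.327, 0.170 and 0.263 TPM. Of 8 colon markers 6 reached a mean of 1 TPM in DLD1, 5 in HUH7 and 1 in NCIH838. Of 6 lung markers measured 2 did in NCIH838, 2 in DLD1 and 1 in HUH7, so this lung count does not set NCIH838 apart. Levels of 2 of them did: KRT7 and MUC1 averaged 38.6 and 39.8 TPM in NCIH838 CTRL. They averaged 2.76 and 2.57 TPM in DLD1 CTRL and 0.387 and 5.99 TPM in HUH7 CTRL. In NCIH838 NKX2-1 was at 0 or 0.0582 TPM, SFTPB and SFTPC stayed under 0.3 TPM, and NAPSA averaged 0.902 TPM in CTRL. The first CTRL library of HUH7 stood apart, with 12.5% of its TPM from mitochondrial genes against 7.07% and 8.34% in the other CTRL libraries, and its 42 members summed to 5852 TPM against 6382 and 6351 TPM. In NCIH838 the mitochondrial share was 11.9%, 12.7% and 15.2% in libraries labelled KDSR KO against 15.2%, 12.1% and 11.9% in CTRL, and in DLD1 it was 8.89%, 8.35% and 9.59% in KDSR KO against 8.95%, 6.49% and 6.32% in CTRL, higher on average in KDSR KO with overlapping groups. Distance between libraries of 1 group was taken as a chi-square per gene, where a larger value is a larger distance. By that measure the first CTRL library of HUH7 lay at 19.4 and 17.6 from the other HUH7 CTRL libraries. Those lay at 3.50 from each other. DLD1 CTRL replicate 3 lay at 9.40 and 7.25 from the other CTRL libraries, against 3.27 between those, and NCIH838 KDSR KO replicate 2 at 14.6 and 8.998, against 5.95. Members of DLD1 and NCIH838 whose call was lost without one of these libraries are named with the value without it.

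A change is the difference of mean log2(TPM + 1), KDSR KO minus CTRL, with its standard error (SE), tested with limma over all genes of at least 1 TPM in the line and called at a Benjamini-Hochberg adjusted p under 0.05. In NCIH838 libraries labelled KDSR KO, 8 members rose and 6 fell of 41 tested (34.1%), against 42.5% of all 16347 genes tested. By direction, 15.7% of all genes were called higher and 26.8% lower, and the median change was 0.04 for the members and -0.09 for all genes. In DLD1 KDSR KO, 11 members fell (26.8%) and 0 rose, against 12.1% of all 15478 genes called lower and 5.16% called higher, 17.3% in all, with medians of -0.12 and -0.07. In HUH7, limma and limma voom each called 0 of 41 members, limma called 0% of all 16104 genes, and 10 members had an unadjusted p under 0.05, against 11.2% of all genes. The HUH7 medians were 0.06 for the members and 0.02 for all genes, and 0.03 and -0.02 without the CTRL library that stands apart. Groups did not overlap for 11 members that were higher and 8 that were lower in NCIH838, against 18.9% and 31.9% of all genes (50.8% in either direction). In DLD1 they did not overlap for 0 higher and 20 lower members, against 12.1% and 27.2% of all genes (39.2%), and in HUH7 for 7 higher and 4 lower, against 6.81% and 10.1% (16.9%). Whether a group holds fewer cells that express a gene or less of its RNA per cell cannot be told apart in these bulk libraries.

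The scale of each library bears on these splits. With libraries scaled by median ratios, NCIH838 had 13 members higher and 4 lower, against 19.9% and 22.7% of all genes under that scaling, and DLD1 had 0 higher and 5 lower, against 7.56% and 7.54%. With quantile normalization the counts were 12 higher and 5 lower in NCIH838, against 20.2% and 22.6% of all genes, and 0 higher and 6 lower in DLD1, against 8.04% and 6.36%. With TPM recomputed without mitochondrial and rRNA genes, 9 members were called in DLD1, all lower, against 16.2% of all genes, where 11 were called with those genes kept. UBTF and FBL were called lower in both lines, and RRP12, BYSL, PES1, NOLC1, NOP56 and NOP58 higher in NCIH838, in each of the 29 alternative settings, as was NHP2 in DLD1. Without CTRL replicate 3, 4 members were called in DLD1 (UBTF, FBL, NHP2 and RRS1), against 10.4% of all genes called there, and without KDSR KO replicate 1 or 2, 6 each, against 11.6% and 11.8% of all genes. RRS1 was lost only with each line fitted alone (adjusted p = 0.0605). Without KDSR KO replicate 2, MYBBP1A, IMP3 and WDR12 were no longer called in NCIH838.

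**Figure D1:**
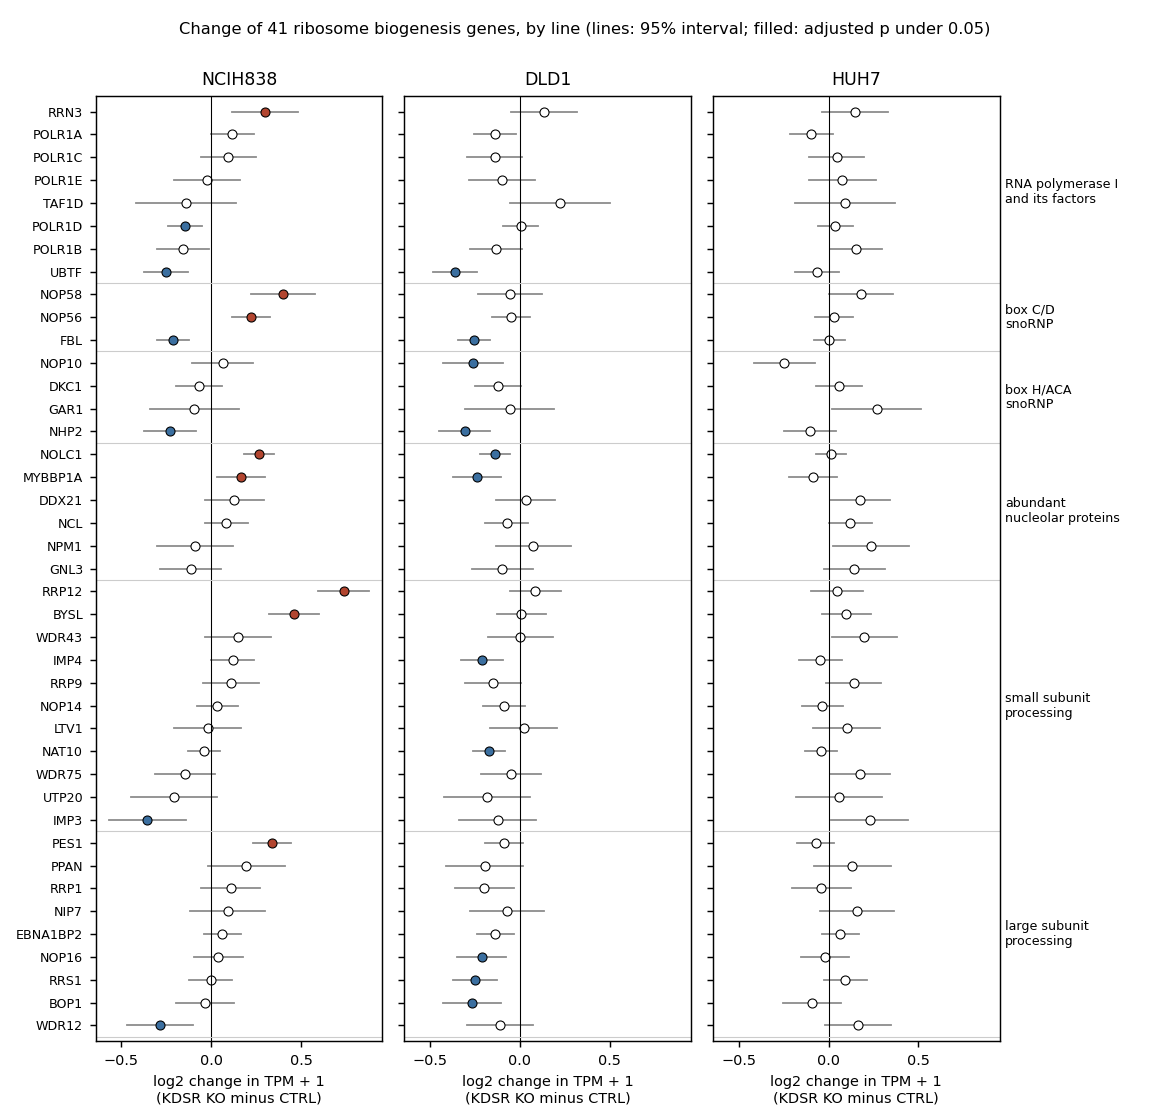
Change of each tested member in log2(TPM + 1), KDSR KO minus CTRL (x axis), in NCIH838, DLD1 and HUH7, ordered by role. Points are estimates from 3 libraries a group, lines are 95% intervals, and filled points passed an adjusted p under 0.05, with red higher and blue lower; RRP12 in NCIH838 stands farthest right at 0.74 and HUH7 has no filled point.

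Among polymerase I and its factors, UBTF was lower in 2 lines. UBTF encodes the factor that binds and opens the ribosomal DNA repeats. It had 56.4, 57.4 and 57.8 TPM in NCIH838 libraries labelled KDSR KO, against 69.6, 66.9 and 68.3 TPM in CTRL, while it had 88.3, 86.3 and 93.1 TPM in DLD1 KDSR KO, against 106, 115 and 125 TPM in CTRL. In both lines every KDSR KO library lay under every CTRL library. The change was -0.25 ± 0.06 (SE, adjusted p = 0.00255) in NCIH838 and -0.36 ± 0.06 (SE, adjusted p = 0.000824) in DLD1. It had 62.7, 66.04 and 59.4 TPM in HUH7 KDSR KO, against 67.99, 62.1 and 66.8 TPM in CTRL, where the groups overlapped.

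RRN3, which joins polymerase I to the promoter-bound factors, rose in NCIH838. It had 107, 91.9 and 92.2 TPM in NCIH838 libraries labelled KDSR KO, against 81.5, 77.98 and 76.5 TPM in CTRL, with no overlap and a change of 0.30 ± 0.09 (SE, adjusted p = 0.0118). Without KDSR KO replicate 1, the highest of the 3, that adjusted p was 0.0588. GENCODE 29 lists 3 RRN3 pseudogenes by name, 2 of them in the table, so reads of RRN3 may have been shared with them. The same holds for NOP56 with 3 named pseudogenes (2 in the table), NHP2 with 2 (2), PES1 with 2 (1) and NCL with 2 (1). POLR1D, a subunit shared by polymerases I and III, fell in NCIH838, to 26.4, 26.2 and 25.6 TPM in NCIH838 libraries labelled KDSR KO, against 27.1, 29.96 and 29.9 TPM in CTRL. Its groups did not overlap, and the change was -0.15 ± 0.05 (SE, adjusted p = 0.0164), which missed the threshold under median ratio scaling (adjusted p = 0.177). The ratio of RRN3 to UBTF within a library, which a factor common to all genes of a library does not alter, was 1.90, 1.60 and 1.60 in NCIH838 libraries labelled KDSR KO against 1.17, 1.17 and 1.12 in CTRL, and 0.567, 0.613 and 0.569 in DLD1 KDSR KO against 0.442, 0.437 and 0.360 in CTRL. In both lines the KDSR KO ratios lay above the CTRL ratios. The pair is of genes already called, UBTF lower in both lines and RRN3 higher in NCIH838, so this ratio restates those calls. In HUH7 the ratio was 0.850, 0.881 and 0.989 in KDSR KO against 0.642, 0.851 and 0.866 in CTRL, which overlapped, with the lowest CTRL value in the library that stands apart.

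The catalytic core was not called in any line. POLR1A, the largest subunit, changed by 0.12 ± 0.06 in NCIH838, -0.14 ± 0.06 in DLD1 and -0.09 ± 0.06 in HUH7. POLR1B, the second largest subunit, changed by -0.16 ± 0.07, -0.13 ± 0.07 and 0.15 ± 0.07 in the same order of lines. The HUH7 value of POLR1B had the smallest p of the role in that line (adjusted p = 0.443), from 42.5, 43.7 and 39.8 TPM in HUH7 KDSR KO, against 33.7, 39.9 and 39.6 TPM in CTRL. The lowest CTRL value of POLR1B was that of the library that stands apart. POLR1C, POLR1E and TAF1D, a subunit of the promoter selectivity complex, lay between -0.14 and 0.22 over the 3 lines.

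In the box C/D snoRNP the mRNAs of its proteins went apart in NCIH838: those of the scaffold proteins NOP58 and NOP56 rose while that of FBL, the methyltransferase, fell. NOP58 had 319, 301 and 326 TPM in NCIH838 libraries labelled KDSR KO, against 249, 219.6 and 248 TPM in CTRL, a change of 0.40 ± 0.08 (SE, adjusted p = 0.00128). NOP56 had 212, 215 and 201 TPM in NCIH838 libraries labelled KDSR KO, against 189, 166 and 183 TPM in CTRL, a change of 0.22 ± 0.05 (SE, adjusted p = 0.00214). FBL had 207, 209 and 188 TPM in NCIH838 libraries labelled KDSR KO, against 230.3, 235 and 234 TPM in CTRL, a change of -0.21 ± 0.04 (SE, adjusted p = 0.000670). None of the 3 genes had overlapping groups there.

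In DLD1, FBL fell as well, to 318, 319.7 and 329 TPM in DLD1 KDSR KO, against 373, 390.0 and 391 TPM in CTRL, with no overlap and a change of -0.26 ± 0.04 (SE, adjusted p = 0.000857). NOP58 and NOP56 were not called in DLD1, at -0.05 ± 0.08 and -0.05 ± 0.05. In HUH7, FBL had 365, 385 and 383 TPM in HUH7 KDSR KO, against 374, 380.0 and 375 TPM in CTRL, a change of 0.00 ± 0.04, and NOP58 had the smallest p of the role (adjusted p = 0.445) with 131, 131 and 112 TPM in HUH7 KDSR KO, against 98.5, 114 and 117 TPM in CTRL. The lowest CTRL value of NOP58 was that of the library that stands apart.

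Ratios of these mRNAs within a library restate the calls above on a scale that a factor common to all genes of a library does not alter. Quantile normalization or removing a GC trend can alter such ratios. In NCIH838 the pairs are of genes already called in opposite directions. The ratios say nothing of protein or snoRNP levels. NOP58 over FBL was 1.54, 1.44 and 1.74 in NCIH838 libraries labelled KDSR KO against 1.08, 0.934 and 1.06 in CTRL. In DLD1 it was 0.580, 0.572 and 0.486 in KDSR KO against 0.509, 0.478 and 0.436 in CTRL, where the lowest KDSR KO library lay inside the CTRL range. In HUH7 it was 0.360, 0.339 and 0.292 in KDSR KO against 0.264, 0.2997 and 0.313 in CTRL, which overlapped. NOP56 over FBL was 1.03, 1.03 and 1.07 in NCIH838 libraries labelled KDSR KO against 0.823, 0.704 and 0.782 in CTRL. In DLD1 it was 0.649, 0.658 and 0.651 in KDSR KO against 0.592, 0.553 and 0.555 in CTRL, and so higher in every KDSR KO library of both lines. In HUH7 it was 0.558, 0.521 and 0.511 in KDSR KO against 0.495, 0.532 and 0.535 in CTRL, which overlapped. NOP56 and NOP58 also hold 5 and 4 snoRNA genes by GENCODE 29, and small RNA genes on the same strand share 8.74% of the exon bases of NOP56 and 1.88% of those of NOP58.

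**Figure D2:**
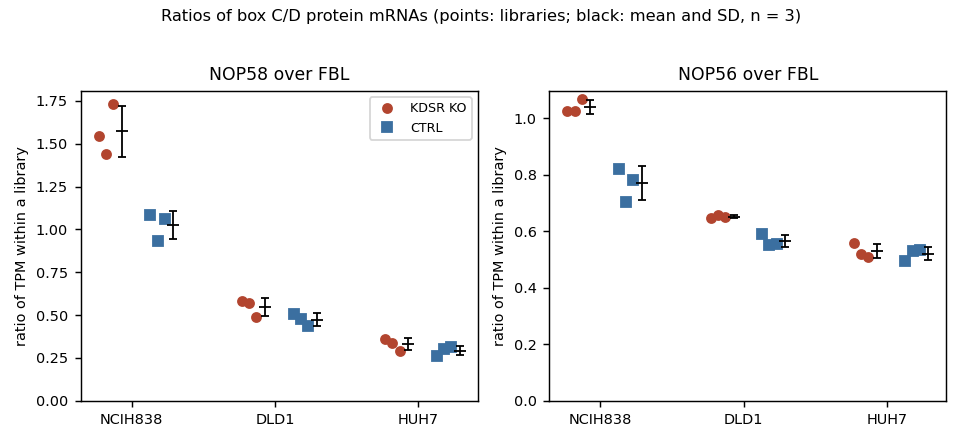
Ratio of NOP58 to FBL (left) and of NOP56 to FBL (right), each in TPM within 1 library, by line with KDSR KO left of CTRL; points are libraries and black marks the mean and SD of 3. The NCIH838 libraries labelled KDSR KO averaged 1.57 for NOP58 over FBL against 1.03 in CTRL.

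In the box H/ACA snoRNP, NHP2 was lower in 2 lines. NHP2, a core protein of the particle, had 236, 253 and 229.7 TPM in NCIH838 libraries labelled KDSR KO, against 269, 285 and 290.1 TPM in CTRL, while it had 234, 222 and 215 TPM in DLD1 KDSR KO, against 267, 268 and 297 TPM in CTRL. Neither line had overlapping groups. The change was -0.23 ± 0.07 (SE, adjusted p = 0.0122) in NCIH838 and -0.31 ± 0.07 (SE, adjusted p = 0.00652) in DLD1. Under median ratio scaling the NCIH838 call was lost (adjusted p = 0.122). Of its exon bases 27.4% lie opposite exons of RMND5B, and how the counting treated strand is not known here.

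NOP10, the smallest protein of the particle, fell in DLD1, to 562, 566 and 501 TPM in DLD1 KDSR KO, against 629, 617 and 709 TPM in CTRL. The change was -0.26 ± 0.08 (SE, adjusted p = 0.0330), which missed the threshold under median ratio scaling (adjusted p = 0.129), without CTRL replicate 3 (adjusted p = 0.142) and without KDSR KO replicate 3 (adjusted p = 0.134). In HUH7 NOP10 had the smallest p of all members there (adjusted p = 0.386), with 665, 720.4 and 720.2 TPM in HUH7 KDSR KO, against 881, 822 and 794 TPM in CTRL and no overlap. In NCIH838 the groups overlapped, at 0.06 ± 0.08. NOP10 over NHP2 within a library was 3.03, 3.46 and 3.19 in NCIH838 libraries labelled KDSR KO against 2.60, 2.68 and 2.59 in CTRL. In DLD1 it was 2.41, 2.54 and 2.33 in KDSR KO against 2.35, 2.31 and 2.39 in CTRL, which overlapped. In HUH7 it was 3.73, 3.72 and 3.63 in KDSR KO against 3.94, 4.03 and 4.27 in CTRL, lower without overlap. This ratio restates in part the values of NHP2 and NOP10 given above. DKC1, the pseudouridine synthase, and GAR1 were called in no line. DKC1 changed by -0.07 ± 0.06, -0.12 ± 0.06 and 0.06 ± 0.06 in NCIH838, DLD1 and HUH7, and GAR1 by -0.09 ± 0.12, -0.06 ± 0.12 and 0.27 ± 0.12.

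Of the abundant nucleolar proteins, NOLC1 and MYBBP1A went in opposite directions in 2 lines. NOLC1, a chaperone of snoRNPs, had 273, 268 and 279 TPM in NCIH838 libraries labelled KDSR KO, against 232, 216 and 233 TPM in CTRL, while it had 411, 423 and 427 TPM in DLD1 KDSR KO, against 448, 469.9 and 472 TPM in CTRL. Every NCIH838 library labelled KDSR KO lay above its CTRL libraries and every DLD1 KDSR KO library below. The change was 0.27 ± 0.04 (SE, adjusted p = 7.74e-05) in NCIH838 and -0.14 ± 0.04 (SE, adjusted p = 0.0253) in DLD1, where median ratio scaling gave an adjusted p of 0.0936 and leaving out CTRL replicate 3 one of 0.0884. MYBBP1A, a nucleolar binding partner of MYB, had 114, 129 and 116 TPM in NCIH838 libraries labelled KDSR KO, against 105, 106 and 109 TPM in CTRL, while it had 103, 95.9 and 104 TPM in DLD1 KDSR KO, against 111, 115 and 132 TPM in CTRL. Its changes were 0.16 ± 0.06 (SE, adjusted p = 0.0453) and -0.24 ± 0.06 (SE, adjusted p = 0.0164) in the same order. The NCIH838 call of MYBBP1A was kept in 13 of the 29 alternative settings, and without KDSR KO replicate 2 its adjusted p was 0.195. Its DLD1 call was lost under median ratio scaling (adjusted p = 0.0978) and without CTRL replicate 3 (adjusted p = 0.0757).

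NPM1 and NCL, the most abundant nucleolar phosphoproteins, and the helicase DDX21 and the GTPase GNL3 were called in no line. NPM1 changed by -0.09 ± 0.10 in NCIH838, 0.08 ± 0.10 in DLD1 and 0.24 ± 0.10 in HUH7. In HUH7 NPM1 had 1257, 1356 and 1304 TPM in HUH7 KDSR KO, against 933, 1232 and 1184 TPM in CTRL, with the low value of CTRL in the library that stands apart. GENCODE 29 names 45 NPM1 pseudogenes, 16 of them in the table, so its counts are uncertain. NCL changed by 0.08 ± 0.06, -0.07 ± 0.06 and 0.12 ± 0.06, DDX21 by 0.13 ± 0.08, 0.03 ± 0.08 and 0.17 ± 0.08, and GNL3 by -0.12 ± 0.08, -0.10 ± 0.08 and 0.14 ± 0.08. DDX21 was called higher in NCIH838 under median ratio scaling (adjusted p = 0.0133) and with limma voom (adjusted p = 0.0444).

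The member with the largest change was RRP12, a factor of small subunit maturation and export. It had 97.2, 115 and 101 TPM in NCIH838 libraries labelled KDSR KO, against 62.6, 60.3 and 63.5 TPM in CTRL, with every library labelled KDSR KO above every CTRL library. The change was 0.74 ± 0.07 (SE, adjusted p = 6.29e-07). In DLD1 it had 46.5, 46.5 and 47.7 TPM in DLD1 KDSR KO, against 41.02, 44.3 and 47.2 TPM in CTRL, which overlapped, and in HUH7 39.1, 39.2 and 35.7 TPM in HUH7 KDSR KO, against 36.6, 34.8 and 38.9 TPM in CTRL, which overlapped too.

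BYSL, which acts late in small subunit assembly, rose in NCIH838 as well. It had 104, 116 and 102 TPM in NCIH838 libraries labelled KDSR KO, against 83.5, 73.1 and 76.2 TPM in CTRL, with no overlap and a change of 0.46 ± 0.06 (SE, adjusted p = 4.37e-05). In DLD1 and HUH7 its changes were 0.01 ± 0.06 and 0.10 ± 0.06. IMP3, part of the complex that pairs U3 snoRNA with the precursor, fell in NCIH838. It had 26.8, 21.7 and 25.7 TPM in NCIH838 libraries labelled KDSR KO, against 33.8, 27.3 and 34.8 TPM in CTRL, and although the groups did not overlap the gap was narrow. Its change was -0.36 ± 0.10 (SE, adjusted p = 0.00979), and its exons lie opposite other genes for 59.3% of their bases. Without CTRL replicate 3 or KDSR KO replicate 2 the adjusted p of IMP3 was 0.0505 and 0.0532.

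In DLD1 the called members of the small subunit group were NAT10 and IMP4, both lower. NAT10, the acetyltransferase of small subunit RNA, had 100.4, 106 and 107 TPM in DLD1 KDSR KO, against 113, 118 and 123 TPM in CTRL, a change of -0.17 ± 0.04 (SE, adjusted p = 0.0108). IMP4, a partner of IMP3, had 82.96, 81.4 and 86.7 TPM in DLD1 KDSR KO, against 90.96, 95.7 and 105 TPM in CTRL, a change of -0.21 ± 0.06 (SE, adjusted p = 0.0180). Both had no overlap, and under median ratio scaling their adjusted p was 0.0666 and 0.0909. Without CTRL replicate 3 it was 0.0524 and 0.0861. WDR43, a scaffold of the early small subunit precursor, had the smallest p of the group in HUH7 (adjusted p = 0.430), from 83.7, 90.5 and 86.9 TPM in HUH7 KDSR KO, against 65.5, 81.4 and 81.2 TPM in CTRL. The lowest CTRL value of WDR43 was that of the library that stands apart. The other members of the group, NOP14, WDR75, RRP9, LTV1 and UTP20, were called in no line, with changes from -0.21 to 0.18.

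Of the large subunit factors, PES1 rose in NCIH838. PES1 acts with BOP1 and WDR12 in the PeBoW complex, which is needed to process the large subunit precursor. It had 105, 113 and 107 TPM in NCIH838 libraries labelled KDSR KO, against 87.2, 83.8 and 85.6 TPM in CTRL, with no overlap and a change of 0.34 ± 0.05 (SE, adjusted p = 5.89e-05). WDR12 fell there, to 33.7, 29.2 and 30.4 TPM in NCIH838 libraries labelled KDSR KO, against 38.8, 37.8 and 37.4 TPM in CTRL, a change of -0.28 ± 0.09 (SE, adjusted p = 0.0145). BOP1 had 144, 166 and 137 TPM in NCIH838 libraries labelled KDSR KO, against 148, 155 and 154 TPM in CTRL, a change of -0.04 ± 0.08, so that the mRNAs of the 3 proteins of this complex were higher, lower and not called in the same libraries. Without KDSR KO replicate 2 the adjusted p of WDR12 was 0.0606.

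In DLD1, BOP1, RRS1 and NOP16 fell. BOP1 had 129.8, 121 and 119.6 TPM in DLD1 KDSR KO, against 141, 139 and 166 TPM in CTRL, a change of -0.27 ± 0.08 (SE, adjusted p = 0.0259). RRS1, which recruits the small RNA of the large subunit, had 128, 124 and 115 TPM in DLD1 KDSR KO, against 133, 145 and 161 TPM in CTRL, a change of -0.25 ± 0.06 (SE, adjusted p = 0.00764). NOP16 had 49.2, 48.03 and 51.5 TPM in DLD1 KDSR KO, against 55.2, 61.2 and 56.4 TPM in CTRL, a change of -0.21 ± 0.06 (SE, adjusted p = 0.0315). Groups did not overlap for any of them, and BOP1 missed the threshold under median ratio scaling (adjusted p = 0.114) and without CTRL replicate 3 (adjusted p = 0.121). NOP16 kept its call under median ratio scaling and lost it without CTRL replicate 2 (adjusted p = 0.122), CTRL replicate 3 (adjusted p = 0.0615), KDSR KO replicate 1 (adjusted p = 0.0850) or KDSR KO replicate 2 (adjusted p = 0.105), and also with the GC trend of each library removed (adjusted p = 0.134). The exons of NOP16 lie opposite other genes for 19.95% of their bases.

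WDR12 had the smallest p of the large subunit group in HUH7 (adjusted p = 0.477), from 24.6, 24.9 and 24.9 TPM in HUH7 KDSR KO, against 18.5, 22.99 and 25.2 TPM in CTRL. The lowest CTRL value of WDR12 was that of the library that stands apart. The other CTRL values lay below and above all KDSR KO values. RRP1, NIP7, PPAN and EBNA1BP2 were called in no line, with changes from -0.20 to 0.19. NOP2, the large subunit methyltransferase, was measured at 0.378 to 1.20 TPM (9 to 29 reads) over the 18 libraries and was not tested. Of its exon bases 54.4% are shared on the same strand with another annotated gene, AC006064.6, and of those of PPAN 56.0% with the readthrough PPAN-P2RY11, so the levels of both are uncertain. LTV1, TAF1D and RRS1 share 34.8%, 11.2% and 11.4% of their exon bases on the same strand with other annotated genes (in TAF1D, snoRNA and miRNA genes), which makes their levels uncertain too.

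**Figure D3:**
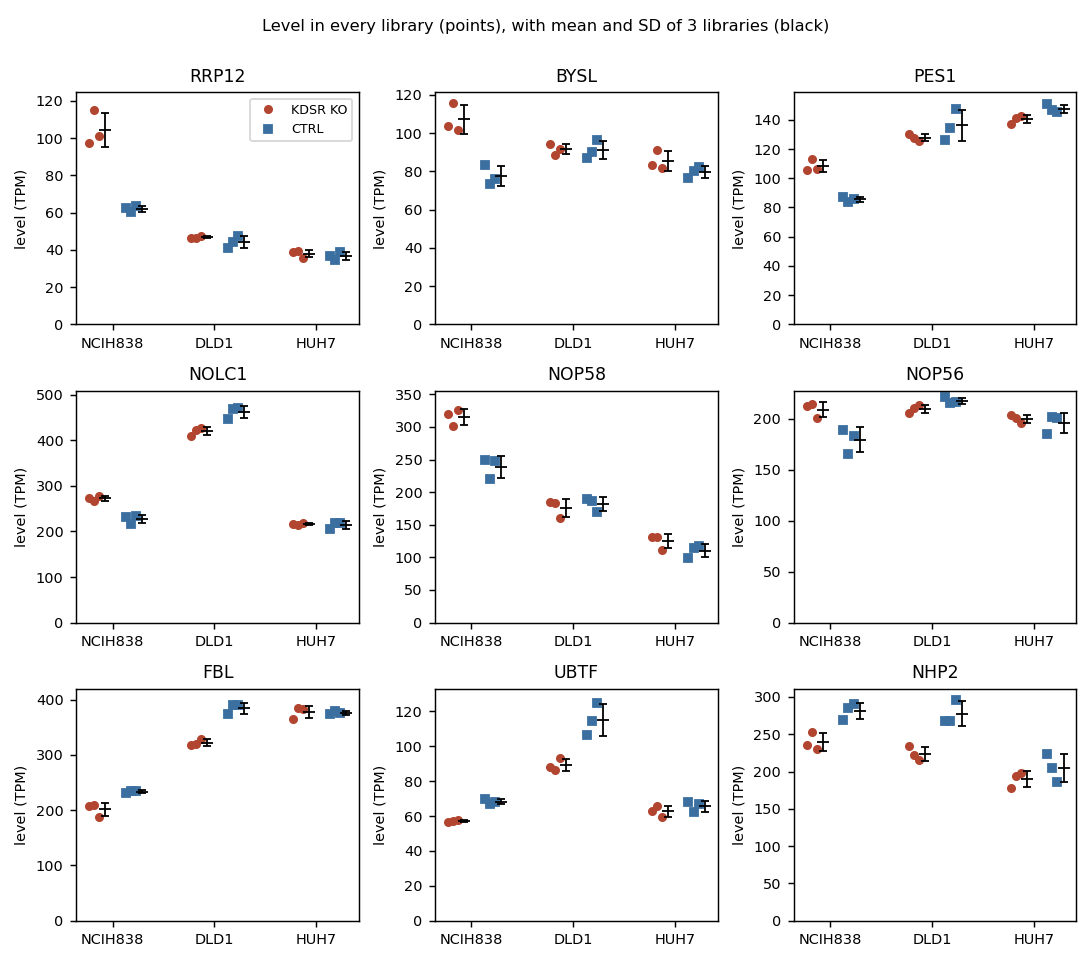
Level in TPM of 9 members in each of the 18 libraries, by line with KDSR KO left of CTRL; points are libraries and black marks the mean and SD of 3. RRP12, BYSL, PES1, NOLC1, NOP58 and NOP56 are higher and FBL, UBTF and NHP2 lower in NCIH838 libraries labelled KDSR KO, and FBL, UBTF, NHP2 and NOLC1 are lower in DLD1 KDSR KO.

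Whether the change itself differed between lines was tested by the difference of the changes. Between NCIH838 and DLD1, 10 members differed, all with the higher change in NCIH838 (24.4% of 41), against 18.2% of all 13467 genes, 9.59% with the higher and 8.65% with the lower change in NCIH838. NOLC1 differed by 0.41 ± 0.06 (SE, adjusted p = 0.000177), RRP12 by 0.65 ± 0.09 (SE, adjusted p = 0.000272), PES1 by 0.43 ± 0.07 (SE, adjusted p = 0.000692) and BYSL by 0.45 ± 0.09 (SE, adjusted p = 0.00324). MYBBP1A, IMP4, NOP56, NOP58, POLR1A and RRS1 made up the other 6, with differences from 0.25 to 0.45. The calls of POLR1A and RRS1 were kept in 17 and 9 of the 28 alternative settings that give this contrast. FBL, UBTF and NHP2, lower in both lines, were not among them, which does not show that they fell alike.

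Between NCIH838 and HUH7, 7 members had the higher change in NCIH838 and 6 the lower (31.7%), against 33% of all 13739 genes, 11.8% with the higher and 21.2% with the lower change in NCIH838. The smallest adjusted p were those of RRP12 at 0.69 ± 0.09 (SE, adjusted p = 9.45e-05), PES1 at 0.41 ± 0.07 (SE, adjusted p = 0.000498), NOLC1 at 0.25 ± 0.06 (SE, adjusted p = 0.00355) and IMP3 at -0.59 ± 0.14 (SE, adjusted p = 0.00592). Those of NOP56, NOP10 and POLR1D were kept in 10, 12 and 12 of 28 alternative settings. IMP3 had its lowest HUH7 CTRL value in the library that stands apart, 34.3 TPM against 42.7 and 39.9 TPM. Between DLD1 and HUH7 only FBL and RRS1 differed (4.88%), both with the lower change in DLD1, against 2.62% of all 13412 genes, 1.6% with the higher and 1.01% with the lower change in DLD1. FBL differed by -0.26 ± 0.06 (SE, adjusted p = 0.0256) and RRS1 by -0.34 ± 0.08 (SE, adjusted p = 0.0325), while UBTF and EBNA1BP2 came next at -0.30 ± 0.08 (SE, adjusted p = 0.0696) and -0.20 ± 0.07 (SE, adjusted p = 0.132). Median ratio scaling left 0 of the DLD1 and HUH7 differences. NCIH838 was collected on a later day, so line and day cannot be told apart in its contrasts.

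Other genes of the pathway were taken from a list of 132. In NCIH838 libraries labelled KDSR KO, 30 rose and 9 fell of 131 tested (29.8%), against 42.5% of all genes called, 15.7% higher and 26.8% lower. The median change was 0.04, against -0.09 for all genes. Under median ratio scaling 43 rose and 6 fell, against 19.9% and 22.7% of all genes. The helicase DDX27 had 226, 243 and 233 TPM in NCIH838 libraries labelled KDSR KO, against 162, 158 and 169 TPM in CTRL, a change of 0.52 ± 0.04 (SE, adjusted p = 3.58e-07). EFL1, the GTPase that releases a large subunit anti-association factor, had 39.5, 37.99 and 41.7 TPM in NCIH838 libraries labelled KDSR KO, against 28.5, 26.95 and 31.2 TPM in CTRL, a change of 0.45 ± 0.05 (SE, adjusted p = 1.06e-05). TBP, the TATA-binding protein shared by the 3 polymerase systems, had 68.5, 66.2 and 65.1 TPM in NCIH838 libraries labelled KDSR KO, against 46.6, 50.4 and 49.5 TPM in CTRL, a change of 0.44 ± 0.06 (SE, adjusted p = 2.15e-05). All 3 had groups that did not overlap. The lowest p among those that fell were of POLR2H, a subunit common to polymerases I, II and III, of EXOSC9, a subunit of the RNA exosome, and of RPP38, a protein of RNase P and MRP. POLR2H had 109, 93.6 and 91.8 TPM in NCIH838 libraries labelled KDSR KO, against 143, 143 and 145 TPM in CTRL, a change of -0.55 ± 0.07 (SE, adjusted p = 1.18e-05). EXOSC9 changed by -0.45 ± 0.09 (SE, adjusted p = 0.000871) and RPP38 by -0.31 ± 0.07 (SE, adjusted p = 0.00210).

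In DLD1 KDSR KO, 2 of 130 rose and 15 fell (13.1%), against 17.3% of all genes called, 5.16% higher and 12.1% lower. The median was -0.04, against -0.07 for all genes. Median ratio scaling gave 6 higher and 5 lower, against 7.56% and 7.54% of all genes (15.1% called). POLR2L, another subunit common to the 3 polymerases, had 846, 891 and 791 TPM in DLD1 KDSR KO, against 1058, 1056 and 1254 TPM in CTRL, a change of -0.41 ± 0.07 (SE, adjusted p = 0.00124). RRP1B, a paralog of RRP1, changed by -0.21 ± 0.04 (SE, adjusted p = 0.00407), and CD3EAP, a polymerase I subunit, by -0.37 ± 0.08 (SE, adjusted p = 0.00547). DDX27 and MPHOSPH10, a U3 snoRNP protein, rose, by 0.16 ± 0.04 (SE, adjusted p = 0.0254) and 0.21 ± 0.06 (SE, adjusted p = 0.0343), and both rose in NCIH838 too. In HUH7, limma and limma voom each called 0 of 130, and 16 had an unadjusted p under 0.05, against 11.2% of all genes.

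A further list held 12 RNAs that host snoRNAs in their introns, all of those called being named here after their values were seen. ZFAS1, EPB41L4A-AS1, SNHG5 and GAS5 rose and SNHG3 fell in both NCIH838 and DLD1, and SNHG6 fell in NCIH838. That is 6 of 12 in NCIH838 (50%), 4 higher and 2 lower, against 42.5% of all genes called, 15.7% higher and 26.8% lower. In DLD1 it is 5 of 12 (41.7%), 4 higher and 1 lower, against 17.3%, 5.16% higher and 12.1% lower. Under median ratio scaling 4 were higher and 1 lower in NCIH838, against 19.9% and 22.7% of all genes, and 5 higher and 0 lower in DLD1, against 7.56% and 7.54%. ZFAS1 had 95.8, 85.4 and 76.5 TPM in NCIH838 libraries labelled KDSR KO, against 47.9, 51.9 and 45.6 TPM in CTRL, while it had 40.3, 40.2 and 36.4 TPM in DLD1 KDSR KO, against 29.5, 26.8 and 23.5 TPM in CTRL. No library of one group reached the other in either line, and the change was 0.81 ± 0.10 (SE, adjusted p = 2.13e-05) in NCIH838 and 0.54 ± 0.10 (SE, adjusted p = 0.00308) in DLD1. SNHG3 had 49.8, 48.00 and 46.3 TPM in NCIH838 libraries labelled KDSR KO, against 71.04, 67.6 and 61.6 TPM in CTRL, while it had 35.99, 35.99 and 35.9 TPM in DLD1 KDSR KO, against 44.4, 41.2 and 39.4 TPM in CTRL, with changes of -0.47 ± 0.06 (SE, adjusted p = 3.05e-05) and -0.21 ± 0.06 (SE, adjusted p = 0.0344). GAS5 had 134, 117 and 119 TPM in NCIH838 libraries labelled KDSR KO, against 104, 99.9 and 103 TPM in CTRL, a change of 0.27 ± 0.07 (SE, adjusted p = 0.00866), and in DLD1 0.24 ± 0.07 (SE, adjusted p = 0.0402). The DLD1 calls of GAS5 and SNHG3 were kept in 17 and 18 of the 29 alternative settings, those of SNHG5 and EPB41L4A-AS1 in 21 and 26. The NCIH838 call of SNHG6 (adjusted p = 0.0461) was kept in 8 of the 29. In HUH7, limma and limma voom each called 0 of the 12, with 3 at an unadjusted p under 0.05, against 11.2% of all genes.

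**Figure D4:**
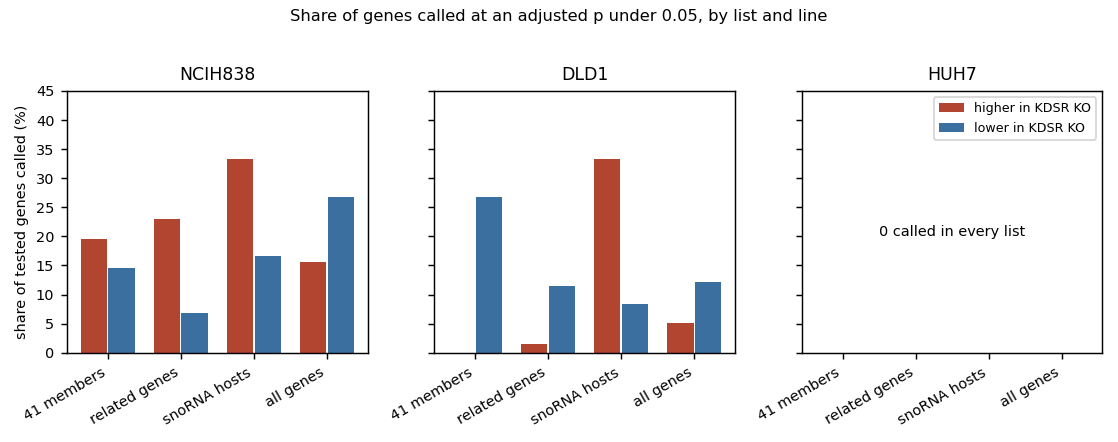
Share of tested genes called higher (red) and lower (blue) in KDSR KO, in percent, for the 41 members tested, the related list, the snoRNA host list and all genes tested, by line. In DLD1 the members have no bar for higher and 26.8% lower, against 5.16% and 12.1% of all genes, and HUH7 has 0 calls in every list.

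The lines also differed in the level of these genes without the KDSR guide. Between CTRL libraries, 35 of 41 members differed between DLD1 and HUH7 (29 higher and 6 lower in DLD1), against 71.7% of all genes, 43.5% higher and 28.3% lower. Between NCIH838 and HUH7 34 differed (20 higher and 14 lower in NCIH838), against 72.7% of all genes, 39.7% higher and 33.1% lower. Between NCIH838 and DLD1 33 differed (11 higher and 22 lower in NCIH838), against 74.6% of all genes, 32.8% higher and 41.8% lower. Most genes differed between the lines, and so did most members. NPM1 had the highest level in each line, at 1252 TPM in NCIH838 CTRL, 1841 TPM in DLD1 CTRL and 1116 TPM in HUH7 CTRL, and PPAN and NOP2 were lowest.

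POLR1D had 65.5 ± 2.17 TPM in DLD1 CTRL and 24.7 ± 0.371 TPM in HUH7 CTRL (SD, n = 3 each), a difference of 1.37 ± 0.05 (SE, adjusted p = 3.09e-13). TAF1D differed by 1.22 ± 0.13 (SE, adjusted p = 4.88e-07), higher in DLD1 CTRL, while LTV1, also uncertain by its shared exon bases, and POLR1E differed by -0.50 ± 0.09 (SE, adjusted p = 9.52e-05) and -0.49 ± 0.09 (SE, adjusted p = 9.90e-05). NIP7, a late factor of the large subunit, had 138 ± 4.74 TPM in NCIH838 CTRL against 69.00 ± 3.76 TPM in DLD1 CTRL and 61.8 ± 10.3 TPM in HUH7 CTRL. The NIP7 level of DLD1 CTRL did not pass the test against HUH7 CTRL, at 0.17 ± 0.10 (SE, adjusted p = 0.130). NOP14, which joins the small subunit precursor early, had 60.3 ± 3.82 TPM in NCIH838 CTRL against 141 ± 8.65 TPM in DLD1 CTRL and 147 ± 3.36 TPM in HUH7 CTRL. Between NCIH838 CTRL and HUH7 CTRL, NOP14 differed by -1.27 ± 0.05 (SE, adjusted p = 6.18e-12), POLR1A by -0.999 ± 0.06 (SE, adjusted p = 1.94e-10), NIP7 by 1.16 ± 0.10 (SE, adjusted p = 2.73e-08) and NOP58 by 1.12 ± 0.08 (SE, adjusted p = 6.61e-09). Between NCIH838 CTRL and DLD1 CTRL, NIP7 differed by 0.99 ± 0.10 (SE, adjusted p = 1.71e-07), RRN3 by 0.72 ± 0.09 (SE, adjusted p = 1.56e-06), RRP1 by -1.22 ± 0.08 (SE, adjusted p = 8.12e-10) and NOP14 by -1.22 ± 0.05 (SE, adjusted p = 1.08e-11).

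**Figure D5:**
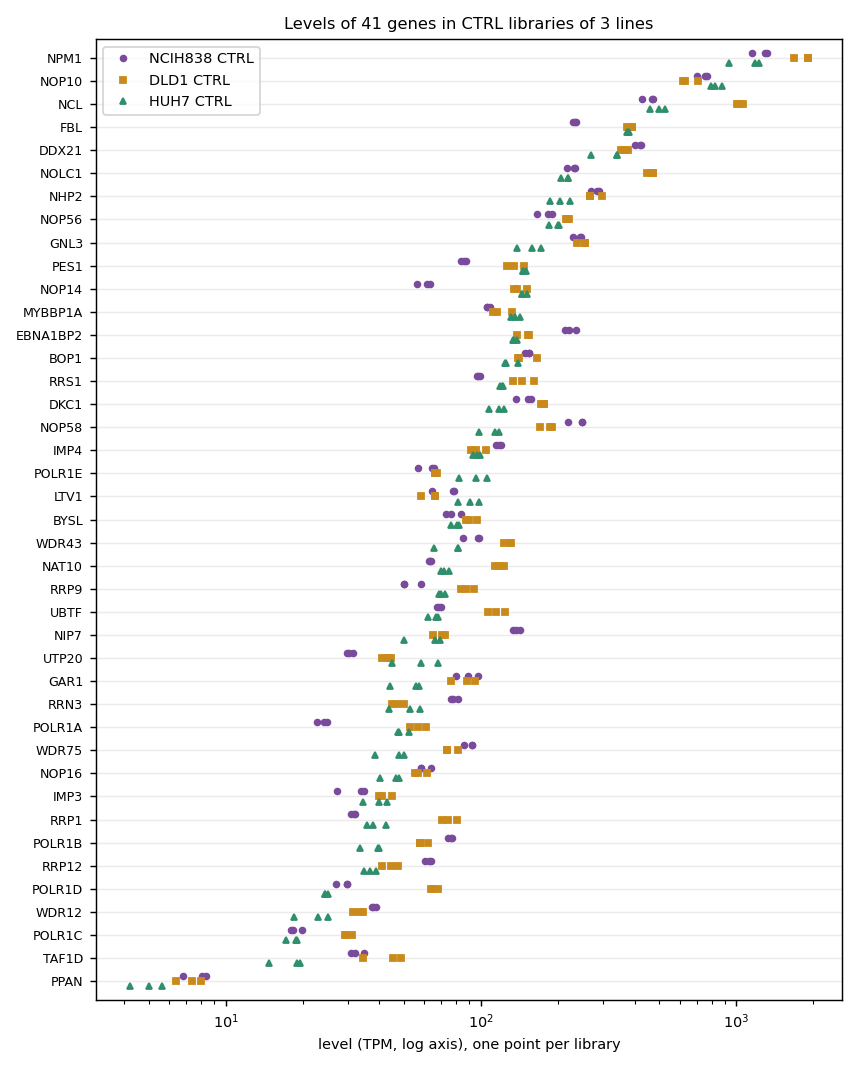
Level in TPM (log axis) of the 41 members of at least 1 TPM in each CTRL library of NCIH838, DLD1 and HUH7, ordered by the mean in HUH7. NPM1 is highest in every line, and NIP7 and NOP14 show NCIH838 far from the other 2 lines, at 138 and 60.3 TPM.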

How the data were processed

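RNA of 18 libraries was sequenced, and the authors' deposited values are TPM per gene with gene lengths. Per the submitters' processing notes, reads were counted with featureCounts 2.0.0 on hg38; the aligner, the annotation and the strand setting are not given in the sources used here. The deposited TPM came back as whole reads (within 0.01) for 100% of the values of each library, 17039634 to 20385767 reads per library. Columns were matched to libraries by the sample number in each library's description, and groups were read from the titles. Changes were computed with limma 3.58.1 (R 4.3.3) on log2(TPM + 1), with 1 mean per group over all 18 libraries, 12 residual degrees of freedom, and a trended, robust variance. A fold change on this scale understates that of low genes. Genes of a mean of at least 1 TPM in the line (between lines, in both) were tested, and p-values were adjusted by Benjamini-Hochberg over all of them. KDSR was also compared by two-sided exact permutation tests. Library labels do not say whether replicates were separate cultures, so that p-values measure the spread between these libraries. Every-library values are given, in each line, for up to 6 called members per direction with the largest change, for the members with the smallest adjusted p between lines, and for the member of the smallest p in a role without such a member; other members are given more briefly. The members and lists were chosen with earlier results of these data known. Overlaps, snoRNA genes and pseudogenes are from GENCODE 29, and promoters from RefSeq (36 members matched). Alternatives were another pseudocount (0.1), no filter or 5 TPM, median ratio and quantile scaling, TPM recomputed with rRNA and mitochondrial genes removed, the replicate number as a block, a variance without trend or robustness, limma voom on the recovered reads, each line alone, removing a GC trend, and leaving out each library. Python 3.11.15, pandas 2.3.3 and matplotlib 3.10.9 drew the figures.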

Additional observations from a re-analysis of the deposited data

Results flagged for a closer look

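The change in KDSR KO differed between lines, by the test of the difference itself (limma, Benjamini-Hochberg adjusted p under 0.05), for the members given here as the change in the first line minus that in the second, in log2(TPM + 1). Between DLD1 and HUH7, FBL differed by -0.26 and RRS1 by -0.34. Between NCIH838 and HUH7, the change was higher in NCIH838 for RRP12 (0.69), PES1 (0.41), BYSL (0.36), NOP10 (0.31), NOLC1 (0.25), MYBBP1A (0.25) and NOP56 (0.19). It was lower in NCIH838 for IMP3 (-0.59), WDR12 (-0.45), WDR75 (-0.32), POLR1B (-0.31), FBL (-0.22) and POLR1D (-0.18). No member was called in HUH7, where IMP3, WDR12, WDR75 and POLR1B had their lowest CTRL value in the first CTRL library, which stands apart. IMP3 had 34.3 TPM there against 42.7 and 39.9 TPM, and WDR12 18.5 against 22.99 and 25.2 TPM. WDR75 had 38.4 against 47.6 and 50.1 TPM, and POLR1B 33.7 against 39.9 and 39.6 TPM. NOP10 had its highest CTRL value there, 881 against 822 and 794 TPM. Between NCIH838 and DLD1, the change was higher in NCIH838 for RRP12 (0.65), NOP58 (0.45), BYSL (0.45), PES1 (0.43), NOLC1 (0.41), MYBBP1A (0.40), IMP4 (0.33), NOP56 (0.27), POLR1A (0.26) and RRS1 (0.25). The libraries labelled KDSR KO of NCIH838 did not differ from CTRL in KDSR mRNA beyond the spread between libraries, and they were collected on a later day than those of the other lines. The part of either in these differences was not tested.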

How the results depend on the processing

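No called change of a member turned its direction under the 29 alternatives, and in HUH7 0 members were called under each of them, with at most 0.0497% of all genes. Of the 1189 changes computed per line under alternatives, 24 in NCIH838, 18 in DLD1 and 21 in HUH7 had the other sign, of 8, 9 and 9 members, and none of these was called there or in the reported fit. In DLD1 the 11 members called (17.3% of all genes) became 5 under median ratio scaling (15.1%), 6 under quantile normalization (14.4%), 5 with each line fitted alone (15.9%) and 4 to 13 when 1 library was left out, lowest without CTRL replicate 3 (10.4%) and highest without CTRL replicate 1 (15.6%). The 17 related genes called there became 10 without a filter on low values (8.47% of all genes), 11 under median ratio scaling, 9 under quantile normalization, 10 with the variance without trend or robustness (16.2%) and 4 to 20 when 1 library was left out, lowest without KDSR KO replicate 3 (11.3%). The 5 snoRNA hosts called in DLD1, counted under alternatives chosen after seeing the data, became 2 without a filter and 1 to 6 when 1 library was left out, lowest without KDSR KO replicate 2 or 3 (11.8% and 11.3% of all genes). In NCIH838 the 39 related genes called became 59 with the GC trend removed (47.9% of all genes, against 42.5%), an alternative chosen after seeing the data, and 27 to 49 when 1 library was left out (36.1% to 46% of all genes over these fits). The split of called members there was 13 higher and 5 lower with the GC trend removed, against 22.1% and 25.9% of all genes. Of the differences between DLD1 and HUH7, the 2 called members (2.62% of all genes) became 0 under median ratio scaling (3.33%), 1 under quantile normalization (3.43%), 0 with the variance without trend or robustness (2.01%), 4 with the GC trend removed (7.61%) and 0 to 3 when 1 library was left out (1.48% to 3.44%). Between NCIH838 and HUH7 the 13 called (33% of all genes) became 8 without a filter (18.2%), 8 with the variance without trend or robustness (31.2%) and 7 to 15 when 1 library was left out, lowest without NCIH838 KDSR KO replicate 2 (28.2%). The cause of these changes was not tested. The other counts of called members stayed within 1.5 times.

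Replicate numbers are shared by the groups. The correlation of same-numbered libraries was 0.20, 0.04 and -0.10 in HUH7, -0.12, 0.11 and -0.02 in DLD1 and 0.15, 0.31 and 0.04 in NCIH838. The largest with a CTRL library of another number was -0.04, 0.17 and 0.19, then 0.16, 0.08 and 0.05, then 0.10, -0.11 and 0.12. With 3 libraries a group these values cannot show whether the numbers pair the libraries. With a replicate block, 13 members were called in NCIH838 (41.1% of all genes, against 42.5% without it), 9 in DLD1 (14.5%, against 17.3%) and 0 in HUH7, 9 related genes and 3 snoRNA hosts in DLD1, and 1 member between DLD1 and HUH7 (1.59%, against 2.62%). The median change of all genes was -0.09 in NCIH838 and -0.07 in DLD1, and -0.03 and -0.04 under median ratio scaling. Counting error weighs most on the members with the fewest reads, NOP2 and PPAN.

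The changes within a line that turned sign, in log2(TPM + 1), were these. Under median ratio scaling the values were POLR1E 0.037, LTV1 0.043, NAT10 0.020, BOP1 0.026 and RRS1 0.060 in NCIH838 and FBL -0.018 and NOLC1 -0.0077 in HUH7. Under quantile normalization the values were POLR1E 0.020, NOP10 -0.019, LTV1 0.044 and RRS1 0.049 in NCIH838 and NOP56 0.0018, NOP58 0.012 and WDR75 0.0055 in DLD1. With the GC trend removed the values were LTV1 0.068 and RRS1 0.012 in NCIH838, NOP56 0.0014, WDR43 -0.011 and PES1 0.014 in DLD1 and TAF1D -0.035, NOLC1 -0.0073, UTP20 -0.018, NOP16 0.0060 and RRP1 0.025 in HUH7. With limma voom, in log2 counts per library size, the value was RRS1 0.013 in NCIH838. Without mitochondrial and rRNA genes the value was RRS1 0.0010 in NCIH838. Of the differences between lines, 1148 values per contrast, 24 of 9 members turned sign between NCIH838 and DLD1, 40 of 12 between NCIH838 and HUH7 and 38 of 8 between DLD1 and HUH7, none of them called there or in the reported fit. Those of members named in the contrast were FBL (-0.013, against 0.042 in the reported fit) and NHP2 (-0.0020, against 0.076 in the reported fit) with the GC trend removed. When 1 library was left out, the ranges in NCIH838 were POLR1E -0.085 to 0.055, NOP10 -0.030 to 0.12, GAR1 -0.19 to 0.025, NOP14 -0.019 to 0.069, LTV1 -0.11 to 0.045, BOP1 -0.12 to 0.023 and RRS1 -0.017 to 0.017. In DLD1 they were POLR1D -0.017 to 0.029, NOP58 -0.10 to 0.013, GAR1 -0.14 to 0.011, WDR43 -0.028 to 0.022, BYSL -0.025 to 0.047 and LTV1 -0.040 to 0.055. In HUH7 they were POLR1C -0.0019 to 0.086, POLR1E -0.020 to 0.16, TAF1D -0.032 to 0.16, NOP56 -0.011 to 0.053, FBL -0.0099 to 0.028, NOLC1 -0.018 to 0.031, UTP20 -0.098 to 0.19, NOP16 -0.092 to 0.026 and RRP1 -0.092 to 0.027.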
